A study of Mus musculus with 12 samples.

Results

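The genes described here encode the proteasome of the mouse and its regulators. They are the 51 protein-coding genes of the deposited count table whose symbol begins with Psm, a letter from a to g and a number, out of 56065 genes listed. The table holds 12 RNA-sequencing libraries of the submandibular gland, a salivary gland, from mice aged 8 weeks, in 4 groups of 3 mice: female wild type and male wild type (C57BL/6J), and female and male knockout of the same strain (C57BL/6J-Pou2f3-/-). Pou2f3 encodes the transcription factor on which tuft cells, rare chemosensory cells of epithelia, depend. The knockout is global, not limited to the gland or to a cell type, and no other allele or treatment is given for any group. The study asked how the loss of tuft cells alters gene expression in the gland of each sex. The labels number the mice of each group from 1 to 3 and each library came from the gland of 1 mouse, so p-values measure the spread between mice.

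The proteasome is the barrel-shaped protease that degrades proteins tagged with ubiquitin and so sets the turnover of most soluble proteins of a cell. Its 20S core is built of rings of alpha subunits, which gate the entry, and rings of beta subunits, of which Psmb5, Psmb6 and Psmb7 carry the active sites. The 19S regulatory particle caps the core to form the 26S proteasome, where ATPases unfold the substrate and non-ATPase subunits bind and remove ubiquitin. In cells exposed to interferon, Psmb8, Psmb9 and Psmb10 take the places of Psmb5, Psmb6 and Psmb7 and form the immunoproteasome, known for the peptides it makes for MHC class I. Cells that secrete much protein, such as those of the salivary gland, also send misfolded proteins from the endoplasmic reticulum to the proteasome.

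By role, the 51 genes were 7 alpha and 7 beta subunits of the constitutive 20S core, 6 ATPase and 11 non-ATPase subunits of the 19S particle, 3 immunoproteasome subunits, 6 genes of the other activators and the inhibitor PI31 (Psmf1), and 7 assembly chaperones. The remaining 4 were forms of other tissues or share only the name: Psma8, the alpha subunit of the testis, Psmb11, the beta subunit of the thymus, Psmc3ip, a partner protein that acts in meiotic recombination, and Psme3ip1, a protein that binds PA28 gamma. The genes of the constitutive core and the 19S particle counted above are called here the 31 subunits of the 26S proteasome. Subunits not named Psm, such as Adrm1 and Sem1, are not among them and were followed with the accessory factors. Of the 51 genes, 49 passed the filter on low counts. Psma8 had 0 to 10 counts and Psmb11 0 to 1 count in the 12 libraries, and neither was tested. A further 5 genes of the same name pattern are pseudogenes, with at most 2 counts in any library.

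Total counts ranged from 47031917 to 67881902 per library. The TMM factor, which corrects the library total for abundant RNAs, was lowest in the female wild type (0.625 to 0.759), so the composition of the libraries differed between the female genotypes (0.902 to 1.03 in the knockout), while the male ranges (1.04 to 1.45 and 1.11 to 1.25) overlapped. Pou2f3 itself had 0 to 10 counts, with 0 to 0.142 CPM (the TMM-adjusted count scaled to library size) in wild type and 0 to 0.0486 CPM in knockout, so it was too low to check the genotype labels. Markers of the acinar cells, the secretory cells of the gland, summed to 10460 to 62418 CPM over the 12 libraries, mostly through Prol1, while the acinar marker Smgc was at 0.0133 to 20.4 CPM in males and 414 to 3643 CPM in females, and markers of the granular convoluted tubule summed to 71720 to 129009 CPM in males against 4800 to 10170 CPM in females. Female wild type 1 stood apart in some leukocyte genes (Adgre1 43.4 CPM, against 4.25 to 10.9 CPM in the other libraries, and Itgam), but had the lowest Cd74, H2-Aa and Itgax of all 12 libraries.

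Promoter stretches of 3 catalytic subunits, Psmb5, Psmb6 and Psmb8, are shown first, since the constitutive and the immunoproteasome differ in their catalytic subunits. The stretch of Psmb9, which holds only a CCAAT box, is not shown. RefSeq promoter windows (GRCm38.p6, from 250 bases before to 50 bases after the start) matched 43 of the 51 genes, with 47 windows. The motifs searched on both strands were TGACNNNGC (core of the antioxidant response element, bound by the NFE2L family that drives proteasome genes), TTCNNNGAA (gamma-activated site, an element of interferon-responsive promoters), GAAA followed after any 2 bases by GAAA (core of the element bound by IRF proteins) and CCAAT (bound by NF-Y). The 3 stretches of 60 bases below lie upstream of the start and read 5′ to 3′ on the strand of the gene, with the motif in capitals. Those of Psmb5 (chr14:54618008-54618067, minus strand) and Psmb6 (chr11:70525297-70525356, plus strand) hold the antioxidant response element core, and that of Psmb8 (chr17:34198073-34198132, plus strand) holds a gamma-activated site. That site was found in 1 of 3 immunoproteasome windows and also in those of the constitutive subunit Psmd2 and the chaperone Psmg1, and the IRF core and the antioxidant response element core in 0 of 3. Psmb9 held a CCAAT box alone and Psmb10 none of the motifs. Psmb7 was not matched.
Psmb5: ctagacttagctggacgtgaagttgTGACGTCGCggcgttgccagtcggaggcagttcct
Psmb6: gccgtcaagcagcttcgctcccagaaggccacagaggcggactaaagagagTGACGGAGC
Psmb8: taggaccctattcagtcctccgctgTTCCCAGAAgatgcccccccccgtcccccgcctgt
Over the 27 windows of 26S subunits, the antioxidant response element core was present in 14.8%, against 12.4% of all 32851 promoter windows. CCAAT was present in 37.0% of these windows and 37.4% of all. The IRF core was in 7.41% against 3.44%, and the gamma-activated site in 3.70% against 8.30%. The shares of the antioxidant response element core and of CCAAT in the 26S subunits were thus close to those of all promoters. None of these matches shows binding.

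Levels of different genes were compared per kilobase, as TMM-adjusted CPM per 1000 bases of the canonical transcript, averaged over the 12 libraries. Psma7 (30.8), the beta subunit Psmb6 (30.1) and Psmb3 (20.002) had the highest levels. Psmb2 (2.81) was the lowest of the 31 subunits of the 26S proteasome. In this average the immunoproteasome subunits lay below all of them, with 2.49 for Psmb8, 2.41 for Psmb10 and 1.79 for Psmb9. This held in the male groups but not in the female groups. In female wild type Psmb8 (3.26) and Psmb10 (3.58) lay above Psmb2 (2.99). In female knockout Psmb8 (2.23), Psmb10 (2.23) and Psmb9 (1.96) all lay above Psmb2 (1.87). The chaperones ranged from 1.19 (Psmg4) to 3.76 (Psmg1). Psme4, the nuclear activator PA200, was the highest of the other activators at 15.01. The order also depended on the length used: with all exons of a gene merged, Psmb6 (14.2) and Psmb5 (12.3) led, Psmb7 fell to 2.32, and Psmb10 at 1.82 lay above 2 subunits of the 26S proteasome, Psmb2 (1.20) and Psmd14 (1.49). Levels between genes are therefore given as a description, and the comparisons between groups below, each of 1 gene, do not use length.

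In the female gland, most proteasome genes stood lower in the knockout than in the wild type relative to other genes. Of the 49 genes tested, 38 were lower in the knockout and 0 were higher at an adjusted p under 0.05, and of all 17893 genes tested 19.3% were lower. Among the 31 subunits of the 26S proteasome 30 were lower, with a median log2 fold change of -0.63, or 0.648 times the wild-type level, and a range from -0.93 to -0.23. The median over all genes tested was 0.03, and over protein-coding genes -0.08. In bulk tissue, less RNA per cell and fewer cells of a type cannot be told apart. All 14 constitutive core subunits (median -0.69) and 16 of 17 subunits of the 19S particle (median -0.60) were lower.

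The size of this difference is relative to the median gene and depends on how the libraries were scaled. Under TMM, RLE, upper-quartile scaling, scaling on protein-coding genes, the factors of the authors and library sizes without the 20 most abundant genes, 27 to 40 of the 49 genes were lower and 0 higher. The share of all genes called lower ran from 9.50% without the 20 most abundant genes to 20.5% with RLE. With library totals alone, an alternative chosen after seeing the data, 5 were lower (Psma2, Psma6, Psmb4, Psmd2 and Psmd7) and 0 higher, where 2.01% of all genes were lower and 38.2% higher, the median of the 26S subunits was -0.13 and the median of all genes tested was 0.52. The distance between these medians was -0.65 under both TMM and library totals. A library factor shifts all genes alike, so this distance was bound to stay and does not test the scaling. The summed share of the 51 genes among protein-coding counts was 0.0922 to 0.116% in female wild type and 0.107 to 0.116% in female knockout, so that these shares overlapped. Other measures of composition did not overlap between the female genotypes: protein-coding genes took 57.6 to 65.5% of the counts in wild type and 52.1 to 56.2% in knockout, and long non-coding RNAs, unclassified transcripts and pseudogenes together 0.852 to 1.21% and 1.73 to 2.07%. Their part in the result was not tested. The plot of medians under 7 scalings shows this distance beside the shift of both values.

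**Figure D1:**
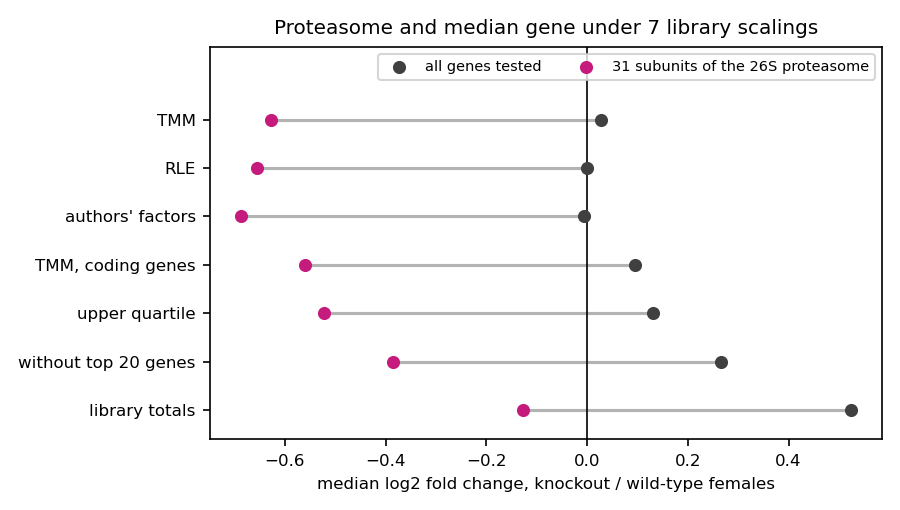
Median log2 fold change of knockout against wild-type females, over the 31 subunits of the 26S proteasome (pink) and over all 17893 genes tested (dark grey), under 7 ways to scale the libraries. The pink and grey points of a row moved together, from -0.63 and 0.03 under TMM to -0.13 and 0.52 under library totals. A library factor shifts all genes alike, so the distance within a row does not test the scaling.

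Among the alpha subunits, which form the outer rings of the core and its gate, all 7 were lower in knockout females (median -0.71). Psma2 read 27.7, 30.2 and 31.9 CPM in the 3 female wild-type libraries and 15.6, 16.8 and 15.9 CPM in the female knockout libraries. The groups did not overlap, and the log2 fold change was -0.89 ± 0.12 (SE; adjusted p = 0.00037). Psma6 read 19.9, 21.2 and 23.8 CPM against 11.6, 13.4 and 10.4 CPM (-0.87 ± 0.14, adjusted p = 0.000771). Psma4 also fell (-0.79 ± 0.10, adjusted p = 0.00028). Psma3 differed least of the alpha subunits (-0.32 ± 0.11, adjusted p = 0.0371), with wild-type values of 24.2, 18.9 and 20.5 CPM and knockout values of 15.4, 19 and 16.5 CPM, which overlapped. Its call was made in 8 of the 17 alternative settings.

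Among the constitutive beta subunits, all 7 were lower (median -0.67). Psmb5, which carries the chymotrypsin-like activity, read 21.4, 27.6 and 27 CPM in female wild type and 16.3, 14.7 and 13.9 CPM in female knockout, with a log2 fold change of -0.76 ± 0.13 (adjusted p = 0.001). Psmb6, the caspase-like subunit, read 28.2, 32.4 and 31.8 CPM against 20.9, 20.4 and 21 CPM (-0.57 ± 0.11, adjusted p = 0.00211), the smallest difference of the beta subunits. Psmb7, the trypsin-like subunit, read 14.4, 15.1 and 17.9 CPM against 10.9, 9.73 and 9.65 CPM (-0.64 ± 0.10, adjusted p = 0.000741). In each of these 3 catalytic subunits every knockout library was below every wild-type library. Psmb4, a structural subunit, differed most (-0.85 ± 0.12, adjusted p = 0.000455), with 16.8, 16.6 and 17.9 CPM against 9.89, 10.5 and 8.06 CPM. Psmb2 (-0.67 ± 0.09) had the smallest adjusted p of the beta subunits (0.000336).

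In the 19S particle, all 6 ATPases, which unfold and push the substrate into the core, were lower (median -0.57). Their log2 fold changes ran from -0.65 ± 0.13 for Psmc1 (11.1, 12.8 and 12.7 CPM against 8.29, 8.37 and 6.69 CPM) to -0.39 ± 0.09 for Psmc3 (19, 22 and 21.1 CPM against 16.8, 15.4 and 15.1 CPM). Of the 11 non-ATPase subunits, 10 were lower (median -0.63). Psmd7, the scaffold partner of the deubiquitinase Psmd14, had the largest difference of all members called: 15.9, 13.8 and 15.7 CPM in wild type and 6.95, 9.60 and 7.29 CPM in knockout (-0.93 ± 0.15, adjusted p = 0.000788). The scaffold subunits Psmd1 (30.4, 30.5 and 31.7 against 17.5, 19.8 and 19.1 CPM, -0.71 ± 0.08, adjusted p = 0.000193) and Psmd2 (43.7, 50.02 and 48.4 against 28.4, 26.7 and 25.5 CPM, -0.82 ± 0.10, adjusted p = 0.00027) had the smallest adjusted p of the 26S subunits. Psmd4, a receptor for ubiquitin chains, was the exception, with 11.9, 13.6 and 15.5 CPM against 12.6, 11.7 and 10.6 CPM, which overlapped (-0.23 ± 0.12, adjusted p = 0.142).

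Of the 3 immunoproteasome subunits, 1 was called in females, and the difference of this class from the 26S subunits was not tested. Psmb10 read 4.94, 4.44 and 4.69 CPM in wild type and 3.02, 3.21 and 2.57 CPM in knockout (-0.68 ± 0.20, adjusted p = 0.0176). Psmb8 read 5.83, 5.09 and 5.73 CPM against 3.97, 4.50 and 2.89 CPM, without overlap, but missed the threshold (-0.55 ± 0.20, adjusted p = 0.0508), which it passed in 6 of 17 alternative settings, RLE, DESeq2 and the factors of the authors among them (adjusted p of 0.0282 to 0.842 over all 17). Psmb9 read 2.80, 3.14 and 3.31 CPM against 3.26, 2.95 and 1.76 CPM, which overlapped (-0.21 ± 0.25, adjusted p = 0.538). The 95% interval of Psmb9, from -0.75 to 0.33, holds both no difference and the median of the 26S subunits. The Psmb10 call was lost without female knockout 3 (adjusted p = 0.0612), with the factors of the authors (0.0794), without the 20 most abundant genes (0.129) and with library totals (0.567).

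Of the other activators and PI31, 3 of 6 were lower. Psme3, the nuclear activator PA28 gamma, read 37, 35.1 and 35 CPM in female wild type and 20.8, 22.3 and 22.6 CPM in female knockout (-0.71 ± 0.09, adjusted p = 0.000236). Psme4 (PA200) read 122, 124 and 122 CPM against 78.3, 84 and 82.8 CPM (-0.59 ± 0.10). Of the interferon-responsive pair of the PA28 ring, Psme2 (PA28 beta) fell from 9.74, 10.4 and 9.41 to 7.43, 7.05 and 7.05 CPM (-0.46 ± 0.09, adjusted p = 0.0022), and Psme1 (PA28 alpha) read 12.9, 13.1 and 15.6 against 12.1, 12.5 and 12 CPM (-0.18 ± 0.11, adjusted p = 0.195). The difference between this pair was not tested. Psme2 shares 66.1% of the 31-base words of its canonical transcript with other genes, foremost its copy Psme2b (0.319 to 0.619 CPM in females), so the split of reads between these copies is uncertain. Psmf1, which encodes PI31, had a log2 fold change of -0.23 ± 0.11 (adjusted p = 0.113). Of the chaperones 3 of 7 were lower: Psmd10 (gankyrin, -0.62 ± 0.22), Psmg2 (-0.58 ± 0.20) and Psmg3 (-0.52 ± 0.18), with adjusted p of 0.0412, 0.041 and 0.0367. These calls were made in 8, 6 and 6 of 17 alternative settings. The smallest difference among the chaperones was that of Psmd9 (-0.08 ± 0.14, adjusted p = 0.667). Psme3ip1 was lower (-0.35 ± 0.11) and Psmc3ip, at 0.0897 to 0.30 CPM in females, was not called.

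Counting libraries rather than tests, 41 of the 49 genes had no overlap between female genotypes, as did 29 of the 31 subunits of the 26S proteasome. Over all genes tested this share was 49.3%. The exceptions among the 26S subunits were Psma3 and Psmd4. In the plot of levels per library, the female knockout columns are blue in nearly every row.

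**Figure D2:**
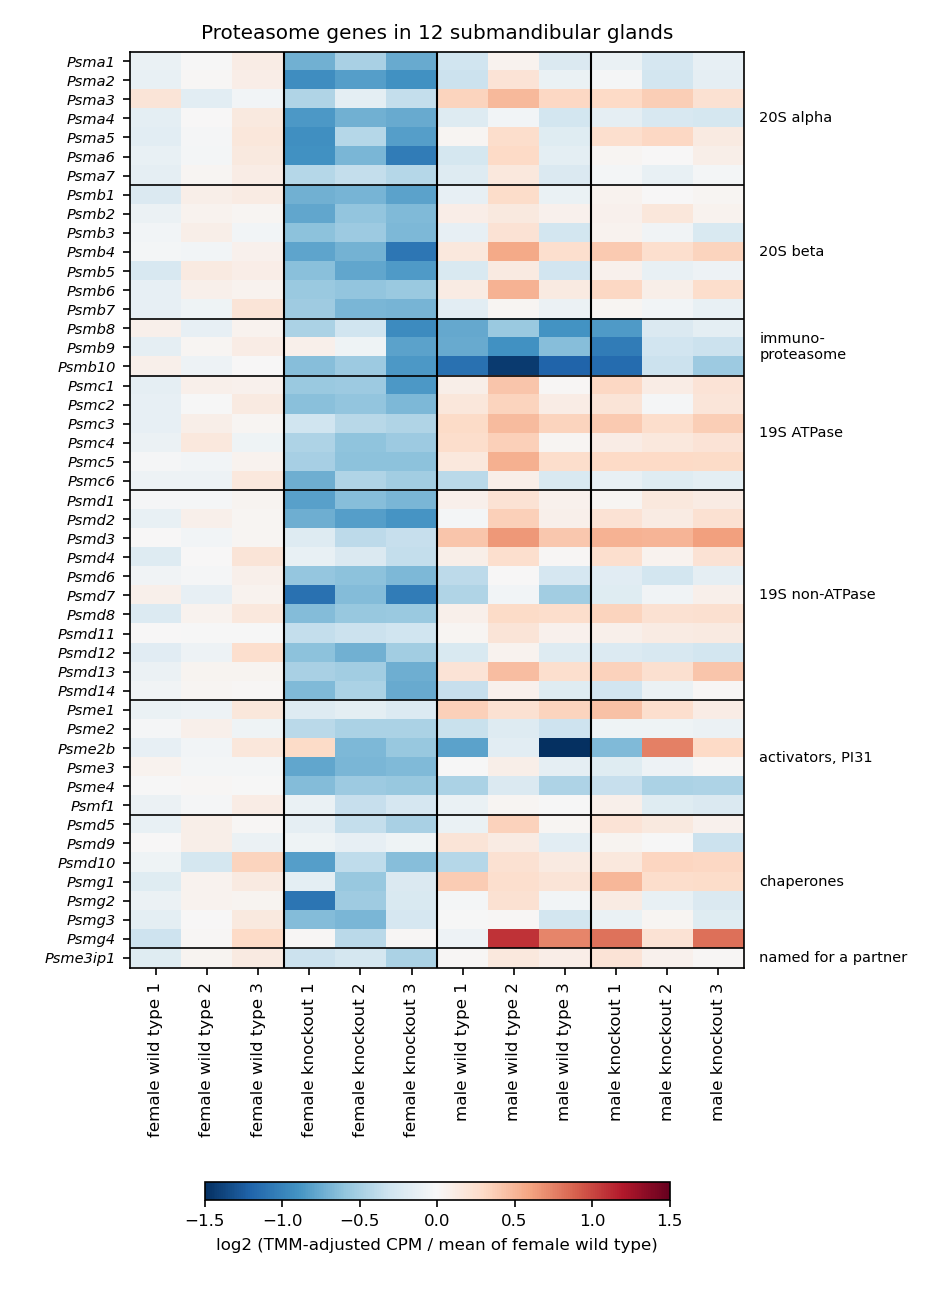
Levels of 48 proteasome genes (rows, grouped by role; Psmc3ip, at most 0.30 CPM, is left out) in the 12 libraries (columns), as log2 of TMM-adjusted CPM over the mean of the 3 female wild-type libraries. The 3 female knockout columns lie below the female wild type in most rows, and the 3 immunoproteasome rows are low in the male wild type.

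In the male gland no difference between genotypes was detected. None of the 49 genes was called by edgeR (0 of 49, against 0.235% of all genes tested), 3 had an unadjusted p under 0.05 (Psmb10, Psme2 and Psme2b, each with a higher mean in the knockout), and DESeq2 also called 0. The median log2 fold change of the 26S subunits was 0.01, and that of all genes was -0.04. The 95% intervals of all 31 held 0, with bounds between -0.38 and 0.60. For Psmb5 the values were 21.5, 27.7 and 20.7 CPM in male wild type and 26.3, 23.2 and 23.8 CPM in male knockout (0.07 ± 0.13, adjusted p = 0.891). For Psma2 they were 23.8, 34.4 and 27.8 against 29.6, 24.8 and 27.2 CPM (-0.08 ± 0.12). Psmd7 read 11.1, 14.8 and 10.5 against 13.3, 14.6 and 15.9 CPM (0.27 ± 0.15, adjusted p = 0.524), the highest of the 26S subunits.

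The immunoproteasome subunits had higher means in male knockout than in male wild type but did not pass the test. Psmb10 read 2.15, 1.73 and 2.04 CPM in male wild type and 2.11, 3.74 and 3.22 CPM in male knockout (0.61 ± 0.20, adjusted p = 0.233). Psmb8 read 3.24, 3.78 and 2.97 against 3.06, 4.77 and 5.02 CPM (0.36 ± 0.20, adjusted p = 0.529). In both, male knockout 1 lay within the range of the wild type and the other 2 libraries lay above it. Psmb9 read 1.82, 1.63 and 1.97 against 1.48, 2.53 and 2.47 CPM (0.26 ± 0.25, adjusted p = 0.759). Without male knockout 1, Psmb10 was called (0.82, adjusted p = 0.0229), and the share of all genes called rose from 0.235% to 3.42%. Male knockout 1 was also the lower of the 3 in Ptprc, the pan-leukocyte gene CD45 (10.6 CPM, against 21.8 and 22.3 CPM). The adipocyte marker Adipoq (0.306 CPM, against 5.09 and 2.89 CPM) and the blood marker Hbb-bs (0.387 CPM, against 1.23 and 0.989 CPM) split the same way. The part of these cells in the immunoproteasome values was not tested.

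**Figure D3:**
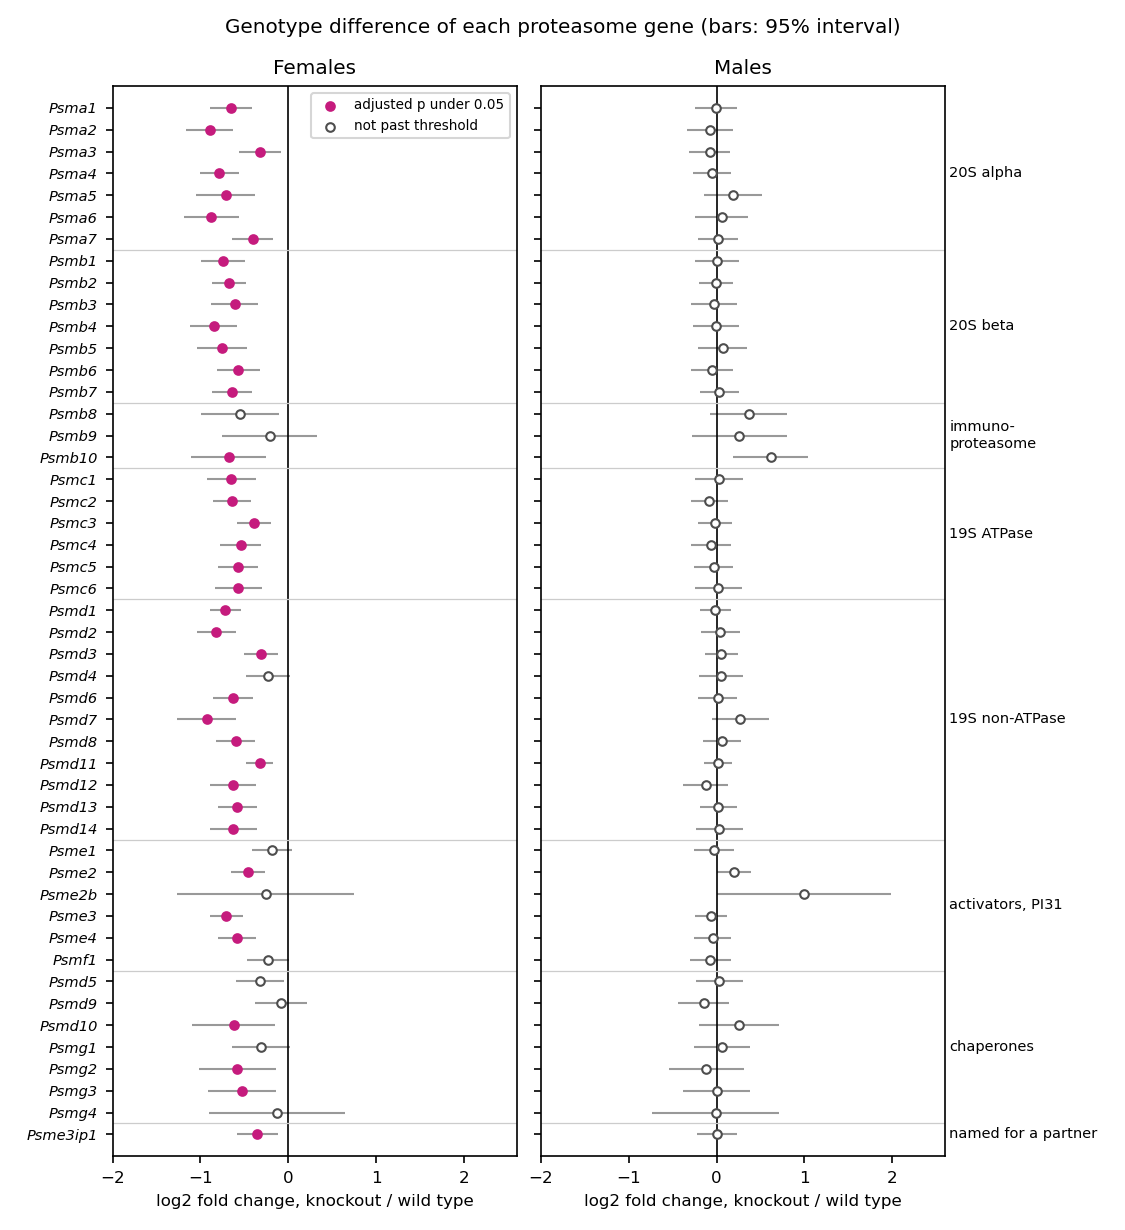
Log2 fold change, knockout over wild type, of the same 48 genes in females (left) and males (right), with 95% intervals. Filled points have an adjusted p under 0.05. The 26S subunits range from -0.93 to -0.23 in the female panel, and those of the male panel lie near 0, from -0.12 to 0.27.

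The difference between the sexes in the effect of the knockout was tested directly as an interaction. It was called for 34 of 49 genes, all with a lower female value, against 12.4% of all genes tested. Among the 26S subunits it was called for 28 of 31 (median -0.64), the exceptions being Psma3 (-0.24 ± 0.15), Psma7 (-0.43 ± 0.15) and Psmd4 (-0.28 ± 0.16). The values were -1.20 ± 0.21 for Psmd7 (adjusted p = 0.00446), -0.86 ± 0.15 for Psmd2 (adjusted p = 0.00403) and -0.70 ± 0.12 for Psmd1 (adjusted p = 0.00379). In the immunoproteasome, Psmb10 had the largest value of all members called (-1.29 ± 0.28, adjusted p = 0.00823), followed in this class by Psmb8 (-0.91 ± 0.29, adjusted p = 0.0358, called in 13 of 22 alternative settings), while Psmb9 was not called (-0.47 ± 0.35, adjusted p = 0.343). Psme2 was called (-0.66 ± 0.13) and Psme1 was not (-0.15 ± 0.15, adjusted p = 0.465). The count fell to 22 without male wild type 1 or without male wild type 3, and to 20 without the 20 most abundant genes. With library totals the count fell to 1, as Psmd7 stayed below the threshold of 0.05 (-0.62, adjusted p = 0.0249). The share of all genes called lower fell too, from 12.4% to 5.94% without male wild type 1 and 6.9996% without male wild type 3. That share was 6.52% without the 20 most abundant genes and 0.721% with library totals. Adipocyte markers were also called in the interaction (3 of 3 lower), with Adipoq at 6.80 CPM in female wild type 3, 5.09 and 2.89 CPM in male knockouts 2 and 3 and at most 0.587 CPM elsewhere, as were 2 of 11 leukocyte markers and 1 of 3 blood markers. Their part was not tested. The interaction uses the same 12 libraries as the comparisons within each sex, and the sex comparisons below share them too.

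Between the sexes, the wild-type gland showed no common direction for the 26S proteasome that held under all scalings. Of the 49 genes 7 were higher in males, against 20.5% of all genes tested, and 5 were lower, against 16.0%. This balance moved with the scaling: 3 were higher and 5 lower with RLE and with DESeq2, 2 and 8 with upper-quartile scaling, 1 and 5 with the factors of the authors, and 2 and 11 without the 20 most abundant genes. The shares of all genes moved too, with 18.4% higher and 18.0% lower with RLE and 17.2% and 20.1% with upper-quartile scaling. They were 15.3% and 14.6% with the factors of the authors, and 14.5% and 22.5% without the 20 most abundant genes. With DESeq2 32.9% of all genes were called in either direction. Among the 26S subunits 6 of 31 were higher (median 0.10): Psma3, Psmb4, Psmc3, Psmc5, Psmd3 and Psmd13, a share near that of all genes. None of the 31 was lower, against 16.0% of all genes. With RLE or DESeq2 3 were higher and 0 lower, with upper-quartile scaling 2 were higher and 3 lower, and without the 20 most abundant genes 2 were higher and 6 lower. Psmd3, a scaffold subunit of the 19S lid, had the largest difference of these, with 32.1, 31.1 and 32.7 CPM in females and 42.5, 50.1 and 42.3 CPM in males (0.49 ± 0.09, adjusted p = 0.000874). Psmc3 read 19, 22 and 21.1 against 25.3, 28.7 and 26 CPM (0.37 ± 0.09, adjusted p = 0.00646). Psmb4 and Psmd13 changed sign with the factors of the authors (-0.031 and -0.0083). Without female wild type 2, 5 of the 49 genes were called (30.4% of all genes), and without male wild type 3, 7 were (27.3%). With library totals, 44 were higher in males, as were 67.7% of all genes, and the median of all genes was 0.95.

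The immunoproteasome was the class in which every member was lower in the male wild type. Psmb10 read 4.94, 4.44 and 4.69 CPM in females and 2.15, 1.73 and 2.04 CPM in males (-1.25 ± 0.20, adjusted p = 0.000355). Psmb8 read 5.83, 5.09 and 5.73 against 3.24, 3.78 and 2.97 CPM (-0.74 ± 0.20, adjusted p = 0.0127). Psmb9 read 2.80, 3.14 and 3.31 against 1.82, 1.63 and 1.97 CPM (-0.77 ± 0.25, adjusted p = 0.0296), without overlap in any of the 3, where 47.6% of all genes tested did not overlap. With library totals the direction flipped for Psmb8 (0.14) and Psmb9 (0.14) and Psmb10 was not called (-0.34, adjusted p = 0.227), while the median of all genes moved to 0.95. Psmb8 missed the threshold without male wild type 3 (adjusted p = 0.0553), and Psmb9 without female wild type 2 or 3 or any 1 of the male wild-type libraries (0.0542 to 0.0821). Psme2 (-0.28 ± 0.09, adjusted p = 0.0273) and Psme4 (-0.38 ± 0.10, adjusted p = 0.00889) were the other members that were lower in males, both reversed with library totals (0.61 and 0.50). Psme2 passed the threshold in 12 of 17 alternative settings and Psme4 in 16, the reversed calls with library totals among them. Psme1 was higher (0.30 ± 0.11, adjusted p = 0.0396), a call made in 5 of 17 alternative settings.

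Markers of other cell types also differed between the wild types. The summed level of the leukocyte markers was lowest in male wild type (206 to 255 CPM), against 297 to 418 CPM in female wild type, and the ranges of female knockout (249 to 363 CPM) and male knockout (259 to 398 CPM) overlapped. Of the 16 markers 11 were tested, and 5 were lower in male than in female wild type (Lyz2, Itgam, Adgre1, Ptprc and Cd68), against 16.0% of all genes tested. Female wild type 1 had the highest value in all 5, with 35.3 CPM of Itgam and 41.4 CPM of Ptprc beside 3.23 to 3.34 and 13.6 to 18.2 CPM in the other female wild-type libraries. The B-cell marker Cd79a was at 0 in every male wild-type library and at or under 0.0897 CPM elsewhere, and the T-cell marker Cd3e was at 0.0133 to 0.235 CPM. In females 2 of 11 were lower in the knockout (19.3% of all genes tested), Adgre1 and Itgam, both highest in female wild type 1, a library whose Psmb8, Psmb9 and Psmb10 values were 5.83, 2.80 and 4.94 CPM beside 5.09 to 5.73, 3.14 to 3.31 and 4.44 to 4.69 CPM in the others of its group. Endothelial markers were lower in male wild type too (4 of 4, sums of 15.5 to 17.8 against 27.1 to 32.2 CPM), as were adipocyte markers (3 of 3, sums of 0.173 to 0.271 against 0.836 to 18.4 CPM), which stood apart in female wild type 3 (Adipoq 6.80 CPM, against 0.253 and 0.471 CPM in the others of its group). Of the acinar markers 7 of 9 were lower in male wild type (median -1.13), while 3 of 3 myoepithelial markers, 2 of 6 duct markers and 7 of 8 markers of the granular convoluted tubule were higher (20.5% of all genes tested). The part of these cells in the difference was not tested.

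A comparison that needs no scaling between libraries sets each immunoproteasome subunit against the constitutive subunit it replaces. In female wild type there were 22.3 ± 4.53 Psmb8 counts per 100 Psmb5 counts (SD, n = 3), 10.0 ± 0.367 Psmb9 counts per 100 Psmb6 counts and 30.1 ± 4.12 Psmb10 counts per 100 Psmb7 counts. In male wild type these were 14.4 ± 0.705, 4.99 ± 1.13 and 13.3 ± 2.27. In all 3 pairs every female wild-type library lay above every male wild-type library. In female knockout they were 25.3 ± 4.97, 12.8 ± 3.87 and 29.1 ± 3.35, each overlapping the female wild type. In male knockout they were 17.8 ± 5.29, 6.10 ± 1.98 and 19.98 ± 5.95, each overlapping the male wild type. The ratio of Psme1 to Psme2 counts per 100 was 142 ± 21.2 and 212 ± 20.1 in the female and male wild types, and 170 ± 7.75 and 180 ± 19.7 in the female and male knockouts. These ratios are descriptions and were not tested. Of the denominators, Psmb5 shares 57.8% of its 31-base words with other genes, against 11.7% for Psmb6 and 4.07% for Psmb7.

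**Figure D4:**
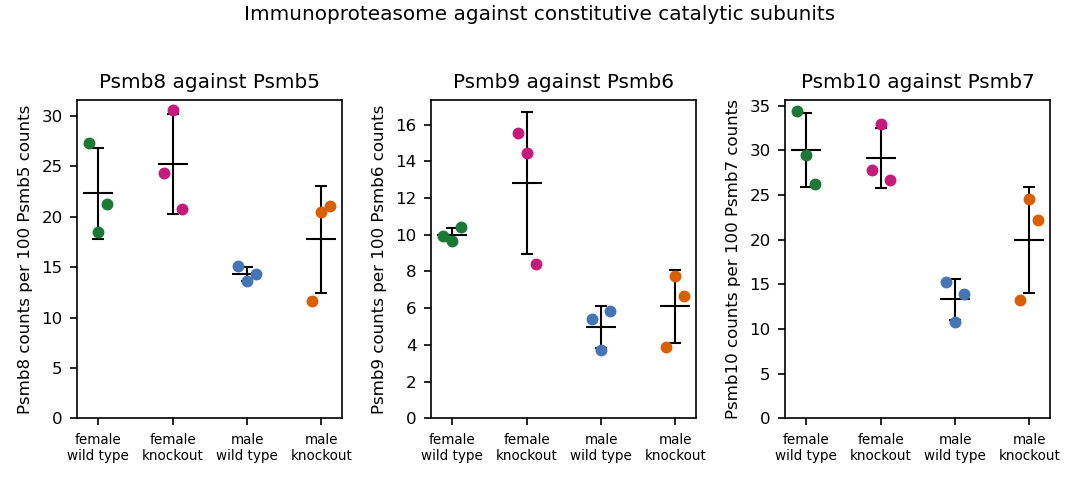
Counts of each immunoproteasome subunit per 100 counts of the constitutive subunit it replaces, by library (points) with mean and SD (bars, n = 3), in the 4 groups. Each male wild-type point lies below each female wild-type point, and the genotypes overlap within each sex.

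In the knockout, the sexes differed in all 31 subunits of the 26S proteasome named Psm. Of the 49 genes 38 were higher in males, against 23.2% of all genes tested, and Psmc3ip, with 2 to 15 counts per library in these groups, was lower, against 20.3% (called in 8 of 15 alternative settings). All 31 subunits of the 26S proteasome were higher (median 0.75, or 1.69 times the female level), and the 2 groups did not overlap in any of them. Over all genes the median was -0.02, and 54.8% did not overlap. Of these, Psmb4 had the largest difference, with 9.89, 10.5 and 8.06 CPM in female and 22.5, 20.2 and 21.5 CPM in male knockout (1.18 ± 0.12, adjusted p = 1.25e-05). Psmd1 had the smallest adjusted p, with 17.5, 19.8 and 19.1 against 31.4, 34.5 and 33.7 CPM (0.82 ± 0.08, adjusted p = 8.42e-06), and Psmd2 had a log2 fold change of 1.00 ± 0.10. Psma7 had the smallest difference of the 26S subunits (0.35 ± 0.11, adjusted p = 0.0183), called in 12 of 17 alternative settings. None of the 3 immunoproteasome subunits was called: the values were 0.18 ± 0.20 for Psmb8, 0.04 ± 0.20 for Psmb10 and -0.30 ± 0.25 for Psmb9. Without the 20 most abundant genes, 22 of the 49 genes were higher. In that setting 11.98% of all genes were higher and 36.8% lower, against 23.2% and 20.3% under TMM. Cell-type markers differed in the same comparison: in males 6 of 9 acinar and 3 of 4 endothelial markers were lower, and 7 of 8 markers of the granular convoluted tubule, 5 of 6 of the ducts, 3 of 3 myoepithelial, 3 of 3 adipocyte, 2 of 3 blood and 1 of 11 leukocyte markers were higher. Their part in the result was not tested.

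**Figure D5:**
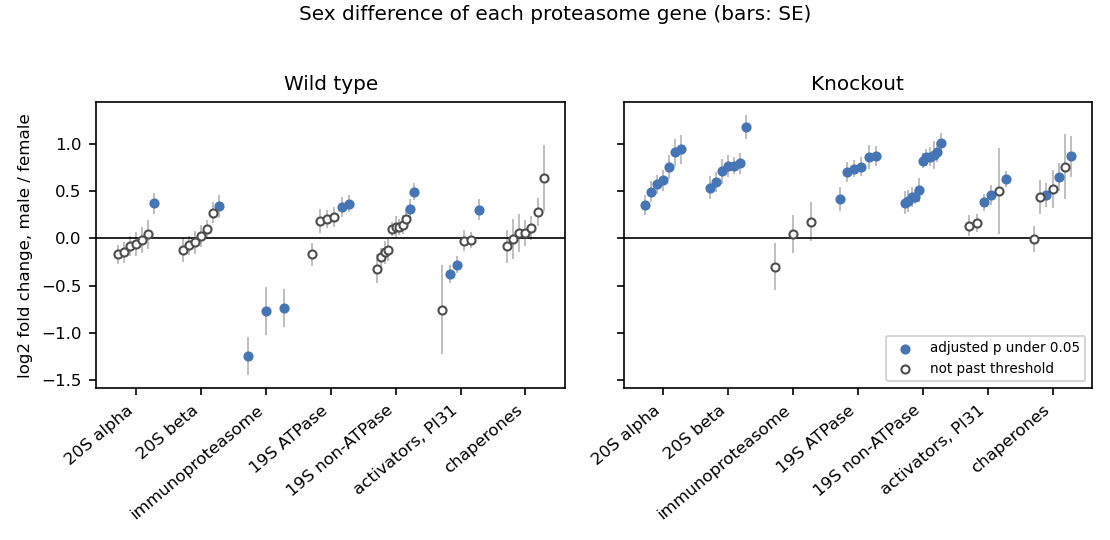
Log2 fold change, male over female, of the 47 tested genes by role, without Psmc3ip and Psme3ip1, in the wild type (left) and the knockout (right), with SE. Filled points have an adjusted p under 0.05. The 26S subunits spread around 0 in the wild type and lie between 0.35 and 1.18 in the knockout, while the immunoproteasome lies below 0 in the wild type and between -0.30 and 0.18 in the knockout.

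Genes that act with the proteasome but are not named Psm were followed in the same comparisons. Of 18 accessory factors tested, 11 were lower in knockout females, against 19.3% of all genes tested, and 0 were called in males, against 0.235%. The list's median in females was -0.40. Pomp, the factor that assembles the core at the membrane, read 23.4, 24.9 and 24.2 CPM in female wild type and 16.1, 16.7 and 13.8 CPM in female knockout (-0.64, adjusted p = 0.000765). The shuttle factor Rad23b (-0.75), which brings ubiquitinated proteins to the 19S particle, was also lower. Of 9 genes of ubiquitin and shuttling, 8 were lower in knockout females (median -0.60), again against 19.3% of all genes, and 0 were called in males. Among the 8 were Uba1, the main ubiquitin-activating enzyme (-0.72), and Nploc4 (-0.60), a cofactor of the segregase that extracts ubiquitinated proteins.

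Of 12 genes that control proteasome transcription, 4 were lower in knockout females, against 19.3% of all genes tested, and the list's median was -0.15. They were Nfe2l1 (71.1, 63.5 and 66.3 against 53.2, 49.1 and 50.5 CPM, -0.39, adjusted p = 0.00459), which encodes the factor that restores proteasome genes when the proteasome is inhibited, Nfe2l2 (-0.41), the NF-Y subunit gene Nfyb (-0.55) and Stat3. None was called in males. Of 16 interferon and MHC class I genes, 8 were lower and 1, the MHC class I activator Nlrc5 (0.74), was higher in knockout females, against 19.3% and 17.6% of all genes tested. Those with the smallest adjusted p were the peptide-trimming enzyme Erap1 (-0.74), the receptor chain Ifngr2 (-0.52) and the peptide-loading factor Tapbp (-0.47). Between the wild types, 7 of the 16 were lower in males (16.0% of all genes), among them Erap1 (-0.93) and Tapbp (-0.62), and 1 was higher (20.5%), the interferon regulatory factor Irf8 (2.37). In knockout males against knockout females, 6 were higher (23.2% of all genes), among them Irf8 (2.54) and the MHC class I light chain B2m (1.01), and 2 were lower (20.3%), among them Stat2 (-1.05).

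Of 9 acinar markers 4 were lower in the female knockout, against 19.3% of all genes tested (Aqp5, Lpo, Pip and Slc12a2). The markers summed to 50425 to 62418 CPM in female wild type and 31691 to 39199 CPM in female knockout, a sum made up mostly of Prol1, which was not called (-0.54, adjusted p = 0.0766). Dcpp2 was at 424 CPM in female knockout 3 and at 0 to 25.03 CPM in the other female libraries. In males the acinar sum was 12277 to 20084 CPM in wild type and 10460 to 14224 CPM in knockout. Between the female genotypes, 2 of 3 adipocyte, 2 of 3 myoepithelial, 2 of 6 duct and 1 of 4 endothelial markers were lower in the knockout too, and 2 of 8 markers of the granular convoluted tubule were higher (17.6% of all genes tested). The part of these cells in the female difference was not tested. Among the members, shared sequence was largest for Psme2b (78.6%), Psmb3 (73.8%), Psme2, Psmb5, Psma5 (56.4%, foremost with the pseudogene Psma5-ps) and Psmd2 (44.4%), so the split of reads in these genes is uncertain.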

How the data were processed

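RNA was extracted from the submandibular gland of each mouse and made into stranded libraries depleted of ribosomal RNA, per the paper's methods, whereas the labels name polyadenylated RNA. The authors estimated transcript abundance with Salmon 1.10.1 and deposited estimated counts per gene on GRCm39. Of these values 78.6% were whole. The authors also deposited a normalized signal, in which each count was divided by a gene-specific factor whose making is not given in the sources used here. That signal was used only to recover these factors for an alternative. Every sample column was mapped to a label.

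Expected counts were rounded and analysed with edgeR 4.0.16 (limma 3.58.1, R 4.3.3). The function filterByExpr kept 17893 genes, library sizes were adjusted by TMM, and quasi-likelihood tests were run with all 4 groups in the fit, calling a gene at a Benjamini-Hochberg adjusted p under 0.05 over all genes of the contrast. DESeq2 1.42.0 was an alternative. CPM values are TMM-adjusted. SE is the absolute log2 fold change over the square root of F. The depth of 47031917 to 67881902 counts per library makes 3 counts, the limit that a count of 0 allows, equal to 0.0399 to 0.0782 CPM. This limit covers counting error only. Figures were drawn with matplotlib 3.10.9. The tests were tried on simulated data in which few genes changed. Those data did not hold the difference in composition between the female libraries. The labels do not say that a number pairs mice, so no pairing was used. The deviations of same-numbered mice from their group means had r of -0.11 to 0.05 in females and -0.13 to 0.09 in males. With 3 mice a group this cannot exclude a pairing.

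Always named are the immunoproteasome subunits and their constitutive counterparts, Psme1, Psme2, members below the filter and genes that share only the name pattern. Per contrast, the rule names the 8 members with the smallest adjusted p among those called and the extremes of each class, and at most 3 called genes of each other list. Other genes named were chosen after their values were seen. The members and lists were chosen with earlier results of these data known. Gene roles are textbook knowledge. Alternatives were other scalings, filters, DESeq2, the contrast's own groups, a replicate block, gene lengths and each library left out. Some genes of the other lists are not reported here.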

Additional observations from a re-analysis of the deposited data

Results flagged for a closer look

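The effect of the knockout on 34 proteasome genes differed between the sexes by the interaction test, each with a lower value in females (log2 difference between the female and the male fold change). No explanation was weighed. In the alpha ring these were Psma1 (-0.64), Psma2 (-0.82), Psma4 (-0.74), Psma5 (-0.90) and Psma6 (-0.93). In the beta ring they were Psmb1 (-0.74), Psmb2 (-0.67), Psmb3 (-0.58), Psmb4 (-0.84), Psmb5 (-0.83), Psmb6 (-0.52) and Psmb7 (-0.67). The immunoproteasome gave Psmb8 (-0.91) and Psmb10 (-1.29).

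Of the 19S ATPases they were Psmc1 (-0.68), Psmc2 (-0.55), Psmc3 (-0.37), Psmc4 (-0.47), Psmc5 (-0.54) and Psmc6 (-0.59). Of the non-ATPase subunits they were Psmd1 (-0.70), Psmd2 (-0.86), Psmd3 (-0.36), Psmd6 (-0.64), Psmd7 (-1.20), Psmd8 (-0.66), Psmd11 (-0.34), Psmd12 (-0.50), Psmd13 (-0.60) and Psmd14 (-0.66). Outside the 26S proteasome they were the chaperone Psmd10 (-0.88) and the activators Psme2 (-0.66), Psme3 (-0.64) and Psme4 (-0.54). Of these, Psmc3, Psmd3 and Psmd10 had the largest adjusted p (0.0493, 0.0499 and 0.0495). Under the 22 alternative settings the test was passed in 8 for Psmc3, Psmd10 and Psmd12, in 9 for Psmd3 and in 13 for Psmb8, Psmc4 and Psmd11.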

How the results depend on the processing

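The counts of members called rested on the scaling more than on the test. Among the 49 genes, 38 were called in females, 0 in males, 34 in the interaction, 12 between the wild-type sexes and 39 between the knockout sexes. Of all genes tested, 36.9%, 0.235%, 25.7%, 36.5% and 43.5% were called in these comparisons. With library totals (added after seeing the data) the counts were 5 in females, 1 in the interaction and 44 in the wild-type sexes. Of all genes 40.2%, 32.7% and 69.4% were called in that setting. Without the 20 most abundant genes the counts were 20 in the interaction and 23 in the knockout sexes. In that setting the share of all genes called lower in the interaction fell from 12.4% to 6.52%. The share of all genes called higher in knockout males fell from 23.2% to 11.98%. In the wild-type sexes the authors' factors gave 6 (29.8% of all genes) and no low-count filter 7 (20.2%). Leaving out 1 library gave 34 to 41 in females, 0 to 1 in males (1 without male knockout 1), 22 to 37 in the interaction (22 without male wild type 1 or 3), 5 to 10 in the wild-type sexes (5 without female wild type 2, 7 without male wild type 3) and 37 to 41 in the knockout sexes. With the replicate block the counts were 36, 0, 31, 10 and 39, and with DESeq2 39, 0, 35, 8 and 39. The shares of all genes were 35.5%, 0.246%, 24.3%, 35.2% and 42.5% with the block. With DESeq2 they were 32.2%, 2.20%, 26.9%, 32.9% and 37.8%. The labels do not say that the mouse numbers pair the mice.

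With library totals the log2 fold change reversed in females for Psma3 (0.17), Psma7 (0.10), Psmc3 (0.12), Psmd3 (0.20), Psmd11 (0.17), Psme2 (0.047) and Psme3ip1 (0.16). In the interaction it reversed for Psmb3 (0.011), Psmb6 (0.082), Psmc2 (0.065), Psmc3 (0.25), Psmc4 (0.14), Psmc5 (0.065), Psmc6 (0.0081), Psmd3 (0.25), Psmd11 (0.27), Psmd12 (0.12), Psmd13 (0.013) and Psme4 (0.063). Between the wild-type sexes it reversed for Psmb5 (0.76), Psmb7 (0.82), Psmb8 (0.14), Psmb9 (0.14), Psme2 (0.61) and Psme4 (0.50), and with the authors' factors for Psmb4 (-0.031) and Psmd13 (-0.0083). Library totals moved the median of all genes to 0.52 in females, 0.64 in the interaction and 0.95 in the wild-type sexes. For the authors' factors the cause was not tested. The distance of the median of the 26S subunits from that of all genes was between -0.77 and -0.57 in females over all settings. Library factors shift all genes alike, so the change of scaling could not test this distance. The low levels of Psmg4, Psme2b and Psmc3ip limit their precision.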
